A study of Mus musculus with 12 samples.

Results

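The 9 genes Gyg, Gys1, Gbe1, Pygb, Pygm, Pygl, Ugp2, Epm2a and Stbd1 of cytosolic glycogen metabolism were followed in the hippocampus of 6 wildtype (WT) and 6 USF-1-deficient (USF-1 KO) mice. They were picked by symbol out of 55487 genes with deposited values and all 9 were found and tested. Gyg was put into the set because its level falls in the KO, so its genotype difference is a description and carries no test here. The gene for the lysosomal enzyme Gaa, which breaks down glycogen that has entered lysosomes, does not belong to the set.

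Glycogen is a branched polymer of glucose. Glycogenin, made from Gyg, adds the first glucose residues to itself and so forms the primer, glycogen synthase lengthens the chains with UDP-glucose supplied by UDP-glucose pyrophosphorylase, and the branching enzyme sets the branch points. Glycogen phosphorylase takes glucose off the chain ends again as glucose 1-phosphate. In the adult brain glycogen is a small store held mostly in astrocytes, and laforin, the product of Epm2a, keeps it soluble; loss of laforin causes Lafora disease, in which poorly branched glycogen builds up in neurons and astrocytes.

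The mice were 3 to 4 months old, on the C57Bl/6JRccHsd background, and came from crosses of heterozygous USF-1-deficient parents, with 1 hippocampal library per mouse. Among the WT mice the labels gave 4 females and 2 males, and among the USF-1 KO mice 2 females and 4 males. USF-1 is a ubiquitous transcription factor whose binding motif is the E-box, CACGTG; its deficiency was inherited and not limited to the hippocampus, so effects of its loss there and in other organs cannot be told apart. Values are normalised counts, that is, reads per gene scaled by the size factor of each library, from 21679622 to 32091173 reads per mouse. Usf1 itself ranged from 842 to 1583 normalised counts in WT mice and from 117 to 163 in KO mice. The lowest WT value belonged to WT 493 and stood apart, since the next lowest was 1425, in WT 547. Why Usf1 was low in WT 493 was not tested. In WT 490 and WT 493 the summed level of 8 choroid plexus markers was 58849 and 164965 normalised counts, against 842 to 2765 in the other 10 mice. The 10 astrocyte markers, including Aqp4 and Gfap, were all expressed, with a summed level of 131451 to 171025 in WT and 138706 to 156780 in KO mice. In bulk tissue fewer cells of a type and less RNA per cell cannot be told apart.

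Among the 9 genes Gyg, which was chosen by this contrast, was the only gene whose 6 KO mice all lay below all 6 WT mice. Of all tested genes, 1.08% were lower in KO with no overlap between the genotypes, and limma called 0.900% at an adjusted p under 0.05 (Benjamini-Hochberg adjustment over 18221 genes), 0.741% as lower in KO. Nothing is read from these shares for Gyg. Of the other 8 genes, 6 had a lower and 2 a higher mean log2 value in KO, with a median log2 fold change of -0.046, and 0 were called. The median over all tested genes was -0.00065. An unadjusted p under 0.05 was found for 1 of the 8 genes, Gys1, which is 12.5%, beside 13.5% of all tested genes. edgeR and DESeq2 on the recovered reads also called 0 of the 8.

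**Figure D1:**
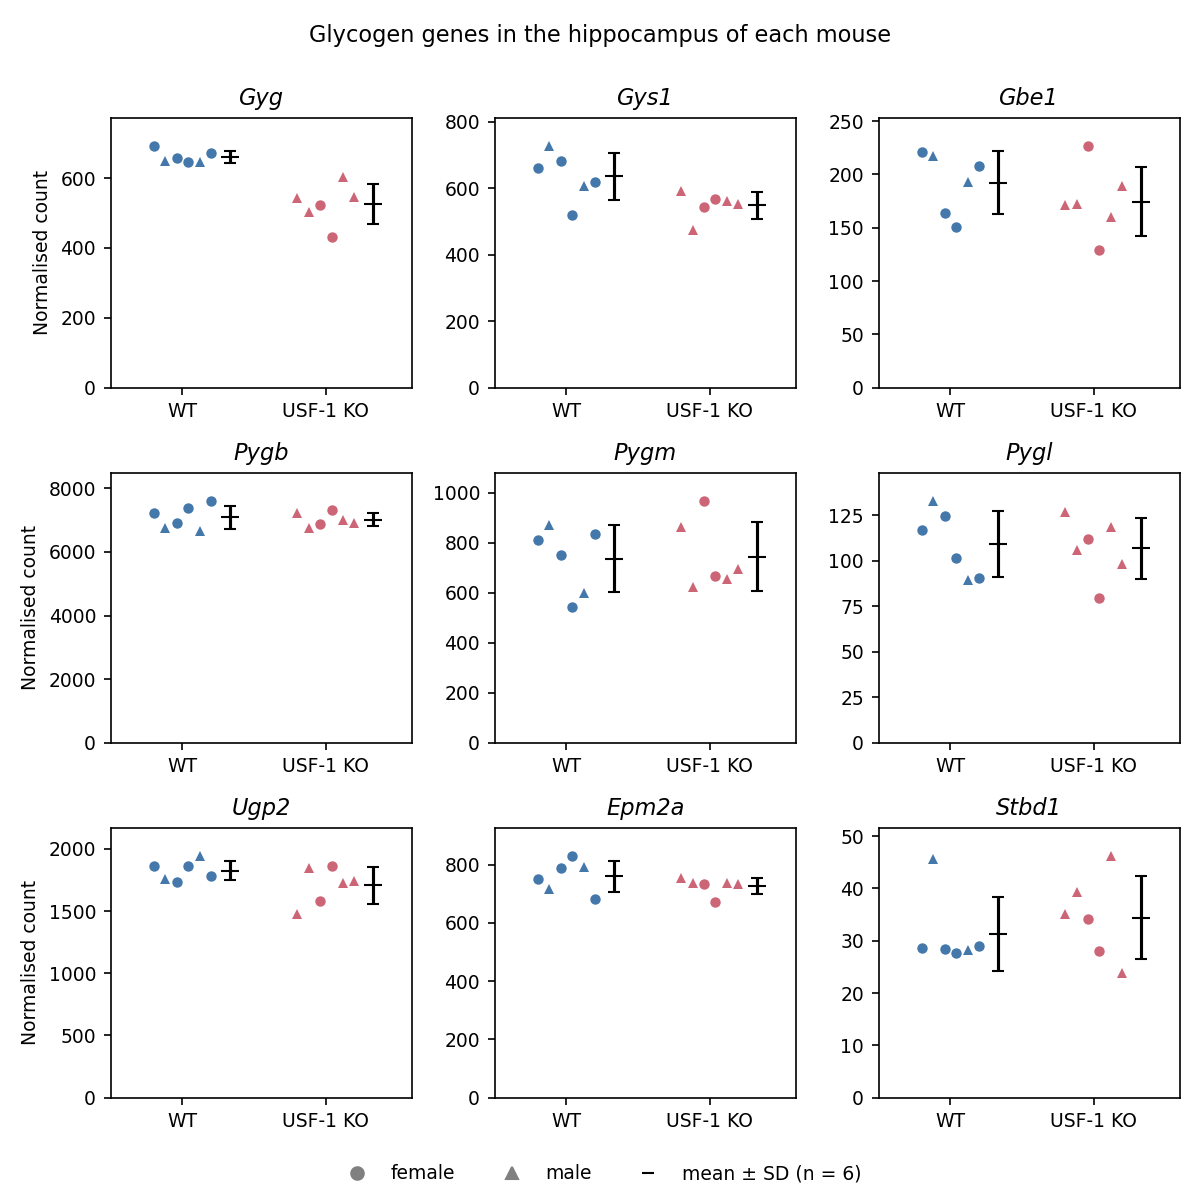
Normalised count of each of the 9 glycogen genes (vertical axis, starting at 0) in the 6 WT and the 6 USF-1 KO mice; circles are females, triangles are males, and bars show the mean ± SD of 6 mice. Only in the panel of Gyg do the KO mice (431 to 604) lie apart from the WT mice (645 to 690.4).

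Gyg (ENSMUSG00000019528) lies on the reverse strand of chromosome 3 from 20122084 to 20155317 (GRCm38). In WT mice its lowest value was 645, the median 653 and the highest 690.4 normalised counts, with a mean of 659.7 ± 18.1 (SD, n = 6). In USF-1 KO mice the lowest was 431, the median 533 and the highest 604, with a mean of 525 ± 57.2 (SD, n = 6). The WT mice lay close together, whereas the KO mice were spread more widely below them, KO 530 lowest and KO 553 highest. The coefficient of variation was 2.75% in WT and 10.9% in KO mice. The mean in KO was 20.4% below that in WT, and on the log2(normalised count + 1) scale the difference was -0.34 with a standard error of 0.07. Behind these values stood 385 to 868 reads per mouse. No stretch of 75 bases in the exons of Gyg is shared with another annotated gene, and no annotated gene overlaps it.

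Since USF-1 binds the E-box, the promoter windows of the set were searched for it. RefSeq gives for each annotated start the 250 bases before and 50 bases after it, here on GRCm38.p6, and all 9 genes had a window, with a pair of windows for Ugp2. Gyg is shown for holding the only E-box of the set, and Gys1, the gene of the enzyme that lengthens the chain which glycogenin begins, is shown beside it. Both are written 5′ to 3′ on the strand of the gene, and capitals mark CACGTG.
Gyg, chr3:20155067-20155366, reverse strand: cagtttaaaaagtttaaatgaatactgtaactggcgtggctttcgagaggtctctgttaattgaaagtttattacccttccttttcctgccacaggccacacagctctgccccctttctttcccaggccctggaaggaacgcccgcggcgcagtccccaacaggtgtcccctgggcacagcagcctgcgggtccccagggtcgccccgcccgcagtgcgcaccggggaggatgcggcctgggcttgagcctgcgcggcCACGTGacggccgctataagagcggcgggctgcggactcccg
Gys1, chr7:45434589-45434888, forward strand: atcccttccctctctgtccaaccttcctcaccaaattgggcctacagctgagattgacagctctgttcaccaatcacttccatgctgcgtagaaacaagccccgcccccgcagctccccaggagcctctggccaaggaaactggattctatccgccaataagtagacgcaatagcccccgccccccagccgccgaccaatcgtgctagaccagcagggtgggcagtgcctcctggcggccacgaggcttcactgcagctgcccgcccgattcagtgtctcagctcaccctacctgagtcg
The window of Gyg holds CACGTG at chr3:20155103-20155108, bases 9 to 14 of the RefSeq transcript. With the bases next to it the match extends to GTCACGTG on the opposite strand, the longer form searched. In GENCODE M21 the same 6 bases fall in the first coding exon of transcript Gyg-201, 209 bases after its start, and lie 7 bases before the start of Gyg-203 and 34 bases before that of Gyg-204. The windows of Gys1 and the other 7 genes do not contain these letters, which says nothing about binding elsewhere. CACGTG, read on both strands, occurred in 7.15% of all 32851 windows and in 9.36% of the 15582 windows of tested genes, and GTCACGTG, each of which also counts as a CACGTG, in 2.25% and 3.69%. Counted by gene, 11.2% of the 12147 tested genes with a window held CACGTG and 4.37% GTCACGTG. Expression alone does not show whether USF-1 occupies the site in Gyg.

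The remaining enzymes of synthesis were Ugp2, Gys1 and Gbe1. All had lower mean levels in KO than in WT, but their genotypes overlapped and limma called none of them, nor did edgeR or DESeq2. Gys1 (ENSMUSG00000003865, chromosome 7 from 45434844 to 45456619), the glycogen synthase of muscle and brain, came nearest. It had a lowest, median and highest value of 519, 640.3 and 726 normalised counts in WT and of 474, 558 and 593 in KO mice. Of the WT mice, 5 lay above every KO mouse, and WT 523 was the low WT value inside the KO range. The WT mean was 636 ± 72.0 and the KO mean 549 ± 40.2 (SD, n = 6 each), a log2 fold change of -0.21 with a standard error of 0.08 (limma, unadjusted p = 0.018, adjusted p = 0.245). Without WT 490 and WT 493 the log2 fold change was -0.14 (limma adjusted p = 0.649). With each mouse left out it ranged from -0.26 to -0.16. Gys1 overlaps Ruvbl2 on the opposite strand by 3253 bases, and 4.43% of its exonic stretches of 75 bases also occur in Ruvbl2 or Cgref1, so some of its reads may be theirs; the mean of Ruvbl2 was 642 in WT and 648 in KO mice.

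Gbe1 (ENSMUSG00000022707, chromosome 16 from 70313949 to 70569716), the branching enzyme, ranged from 151 to 221 normalised counts (median 200.4) in the WT group and from 129 to 226 in KO mice with a median of 172. Its lowest and its highest value were both in KO females, KO 530 and KO 488. The log2 fold change was -0.14 with a 95% confidence interval of -0.43 to 0.14 (limma adjusted p = 0.680). It was -0.22 without KO 488, -0.062 without KO 530 and -0.043 without WT 490 and WT 493. Ugp2 (ENSMUSG00000001891, chromosome 11 from 21321138 to 21371201), which makes the UDP-glucose that also feeds glycosylation, ranged from 1737 to 1939 in WT with a median of 1823, and from 1479.8 to 1862 in KO with a median of 1734. Of the KO mice, 3 were below all WT mice and the other 3 were inside the WT range. The log2 fold change of Ugp2 was -0.10 (95% confidence interval -0.22 to 0.02, limma adjusted p = 0.468).

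Breakdown is carried out by 3 phosphorylase isoforms, named for brain (Pygb), muscle (Pygm) and liver (Pygl), and limma called none of them between the genotypes. Pygb (ENSMUSG00000033059, chromosome 2 from 150786735 to 150831758) ranged from 6666 to 7590.2 normalised counts in WT with a median of 7069, and from 6767 to 7309.7 in KO with a median of 6957. All 6 KO mice were inside the WT range. Its log2 fold change was -0.014, and the 95% confidence interval of -0.10 to 0.07 was the narrowest among the 9 genes (limma adjusted p = 0.915). Pygm (ENSMUSG00000032648, chromosome 19 from 6384399 to 6398459), which astrocytes express along with Pygb, ranged from 543 to 872 in WT with a median of 782, and from 624 to 966 in KO with a median of 681. Of the KO mice, 5 were inside the WT range and KO 488 was above it. The log2 fold change was 0.02 (95% confidence interval -0.27 to 0.31, limma adjusted p = 0.968). Pygl (ENSMUSG00000021069, chromosome 12 from 70190811 to 70231488) ranged from 89.8 to 133 in WT with a median of 109, and from 79.5 to 127 in KO, again with a median of 109. KO 530 was the only KO mouse outside the WT range. The log2 fold change of Pygl was -0.03 (95% confidence interval -0.31 to 0.25, limma adjusted p = 0.944).

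Per length of the longest transcript, Pygb made up 86.1% ± 2.02 (SD, n = 12) of the summed level of the 3 isoforms, Pygm 12.3% ± 1.90 and Pygl 1.64% ± 0.25. The brain isoform thus dominated in every mouse, with 82.5% as its lowest share. Within the genotypes the share of Pygb was 86.2% ± 2.16 in WT and 86.0% ± 2.07 in KO mice (SD, n = 6 each), a difference smaller than the spread between mice.

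Epm2a and Stbd1 act on the glycogen particle itself. Epm2a (ENSMUSG00000055493, chromosome 10 from 11343404 to 11459644), the laforin phosphatase that removes phosphate from glycogen, ranged from 682 to 828 normalised counts in WT with a median of 769.7, and from 673 to 754 in KO with a median of 735. All 6 KO mice were below the WT mean of 759.9, but 5 of them were inside the WT range. The log2 fold change was -0.06 (95% confidence interval -0.17 to 0.05, limma adjusted p = 0.656). Stbd1 (ENSMUSG00000047963, chromosome 5 from 92603041 to 92606579), which binds glycogen and tethers it to membranes, had 27.7 to 45.6 in WT with a median of 28.5, and 23.7 to 46.1 in KO with a median of 34.6. Of the WT mice, 5 lay between 27.7 and 29.0, and WT 493, the mouse with the most choroid plexus markers, stood apart from them. WT 490, also high in these markers, had 28.6. The highest value of all mice was 46.1 in KO 553, whose choroid plexus markers summed to 2765. A relation of Stbd1 to these markers was not tested. The log2 fold change of Stbd1 was 0.13 with a 95% confidence interval of -0.26 to 0.51 (limma adjusted p = 0.810). It was 0.24 without WT 490 and WT 493 (limma adjusted p = 0.763), 0.036 without KO 553 and 0.042 with sex as a covariate.

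**Figure D2:**
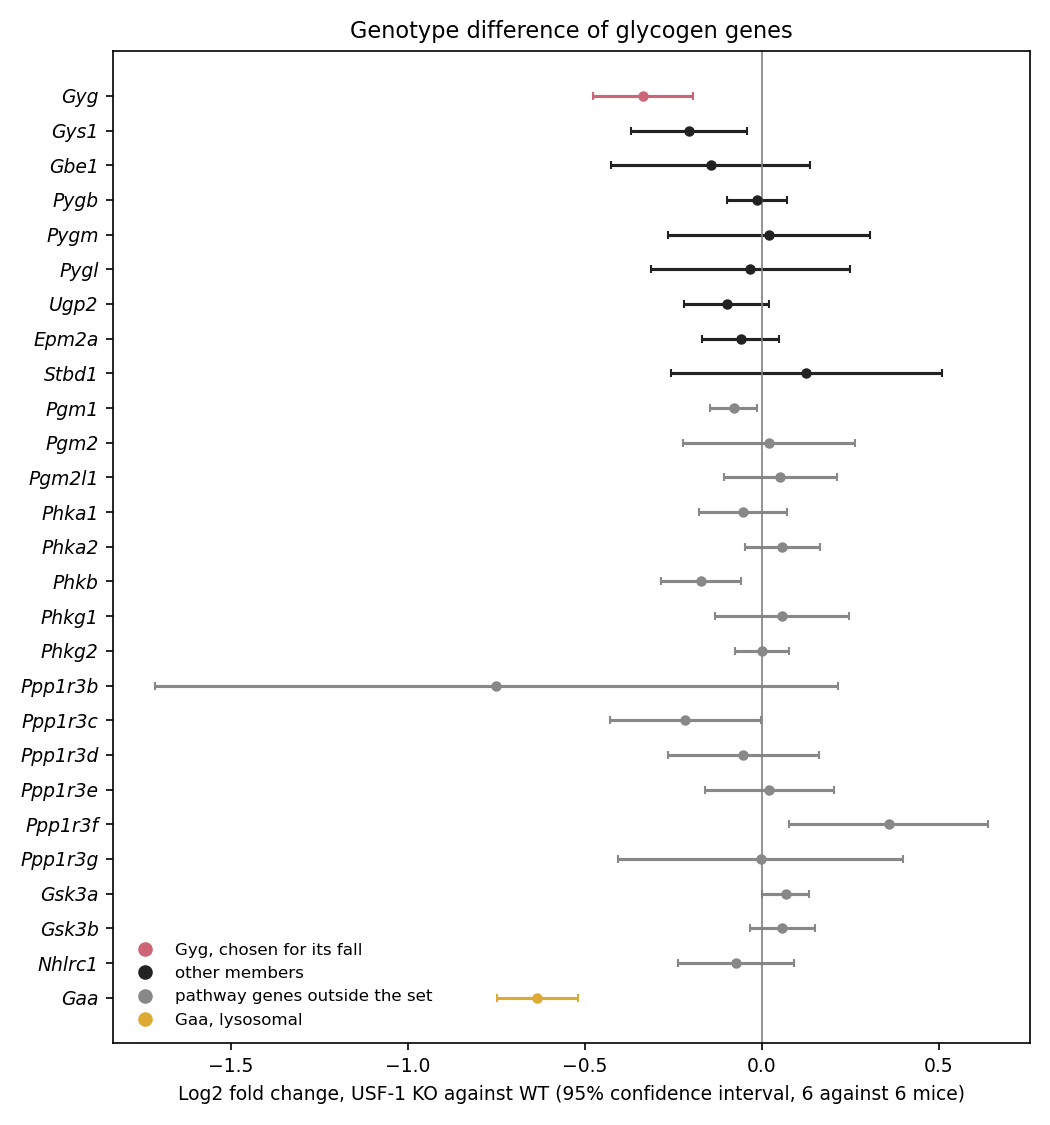
Log2 fold change of USF-1 KO against WT (horizontal axis, dots) with its 95% confidence interval (bars) for Gyg, the other 8 genes of the set, pathway genes outside it and lysosomal Gaa, from 6 against 6 mice. Gyg (-0.34) was chosen for this value, so its interval is no test, while the intervals of Pygb, Pygm, Pygl, Ugp2, Gbe1, Epm2a and Stbd1 include 0, that of Gys1 runs from -0.37 to -0.04, and Ppp1r3b has the widest.

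The genes were then ordered by their level per kilobase of the longest transcript over all 12 mice. Pygb came first with a mean of 1803 normalised counts per kilobase, before Ugp2 with 658 and Gyg with 308. Pygm (258), Epm2a (226) and Gys1 (161) made up the middle, and Gbe1 (49.1), Pygl (34.3) and Stbd1 (16.5) the lower end. Neighbours in this order mostly differed in every mouse. With both genotypes pooled, Gyg exceeded Pygm in only 9 of 12 mice and Pygm exceeded Epm2a in 9 of 12, and the ranges overlapped. The mice with Gyg below Pygm were all KO mice, and Gyg was chosen for its fall in KO. In every WT mouse Gyg was above Pygm. The ranges of Gbe1 and Pygl overlapped although Gbe1 was the higher of them in each of the 12 mice. Measured over all merged exons in place of the longest transcript, the order was identical, although Pygl was then at 15.7 per kilobase.

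**Figure D3:**
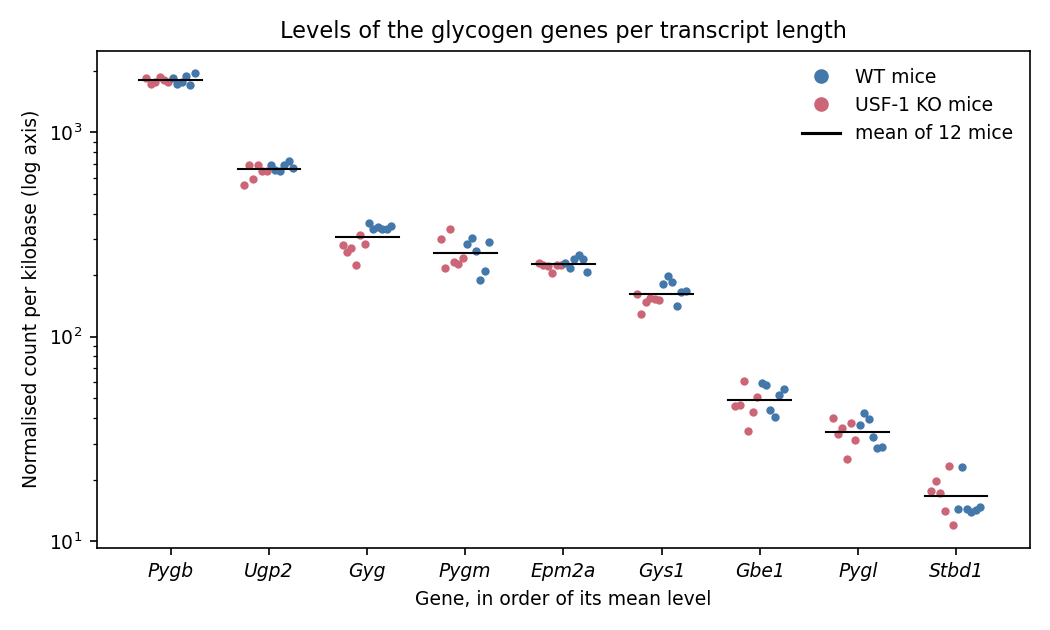
Normalised count per kilobase of the longest transcript (vertical log axis) of the 9 genes in each WT and USF-1 KO mouse, ordered by the mean of 12 mice (black line). The means run from 1803 for Pygb to 16.5 for Stbd1, and Gyg, Pygm and Epm2a share part of their ranges when both genotypes are pooled.

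How much the genes varied among mice of a genotype also differed. Pygm had a within-genotype SD of 0.27 on the log2 scale, larger than that of 94.5% of the 200 tested genes nearest to it in level. For Gys1 the SD was 0.14, above 84.5% of its 200 nearest genes, and for Pygb it was 0.061, above 14.5% of them. Pygm was thus the most variable member for its level and Pygb the least. With levels centred within genotype, Pygm ran opposite to Ugp2 over the 12 mice (Pearson r = -0.73, permutation p = 0.0075, Spearman rho = -0.79, permutation p = 0.0039). Without the mice farthest from the median of Pygm, KO 488 and WT 523, r was -0.77. This was the strongest of 36 pairs of genes, compared after the values had been seen, and the adjusted p over the pairs were 0.196 for r and 0.139 for rho, so that it did not pass the threshold.

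Pygm also ran opposite to 6 excitatory neuron markers, Slc17a7 and Camk2a among them, taken as the mean of their log2 values centred within genotype. The values were r = -0.84 (permutation p = 0.0022) and rho = -0.80 (permutation p = 0.0054). Without KO 488 and WT 523, r was -0.73. Over 36 pairs of a glycogen gene and a marker list, also compared after the values had been seen, the adjusted p were 0.079 for r and 0.112 for rho. The summed level of these markers ranged from 145522 to 189958 in WT and from 140184 to 206968 normalised counts in KO mice. The part of tissue composition in the spread of Pygm was not tested.

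The level of Gyg was set beside the markers of the cell types. limma called 0 genes of any of the 10 marker lists between the genotypes. All 8 oligodendrocyte markers, such as Mbp and Mog, had lower means in KO with a median log2 fold change of -0.68. Their summed level was 88864 to 192915 in WT and 76674 to 117035 in KO mice. WT 522, with 88864, lay inside the KO range of these markers. Its Gyg level was 658. Gyg was chosen for its fall in KO and no WT mouse lies in the KO range of Gyg, so nothing is read from this level. Within genotypes, Gyg and the mean log2 level of the oligodendrocyte markers gave r = 0.14 (permutation p = 0.594, adjusted p = 0.923). The rho was 0.23 (permutation p = 0.453, adjusted p = 0.858), and r was 0.20 without KO 530 and KO 553. All 8 microglia markers were also lower in KO, with a median log2 fold change of -0.21, a summed level of 7969 to 10846 in WT and 7442 to 8367 in KO mice. The 8 choroid plexus markers were lower in KO as well, with a median of -1.24, and their high levels were those of WT 490 and WT 493. All 6 excitatory neuron markers (median 0.14) and all 4 blood markers (median 0.44) had higher means in KO, as did 3 of 5 markers of vascular smooth muscle and pericytes (median 0.37). Of the 6 inhibitory neuron markers, 5 had lower means in KO (median -0.034). Of the 5 endothelium markers, 4 had higher means in KO (median 0.034). Of the 10 astrocyte markers, 7 had lower and 3 higher means in KO, with a median log2 fold change of -0.053. Within genotypes, Gyg and their mean log2 level gave r = 0.05 (permutation p = 0.885, adjusted p = 0.977). The rho was 0.27 (permutation p = 0.429, adjusted p = 0.858), and r was 0.65 without KO 530 and KO 553. The part of these lists in the Gyg difference was not tested.

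Over the 12 mice and with genotype means removed, the log2 level of Gyg most resembled those of the predicted gene Gm6992 (r = 0.95), of Ppil3, a cyclophilin-like protein gene (r = 0.94), and of the proteoglycan gene Spock1 (r = 0.92). These are the highest of 18220 values and are given without a test. Among the other 8 glycogen genes the highest r with Gyg was that of Pygl, 0.57 (permutation p = 0.064, adjusted p = 0.376, rho = 0.40, permutation p = 0.214), and r was 0.13 without KO 530 and KO 553. For Usf1 r was 0.29.

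Sex was compared with genotype in the model, since the labels give unequal numbers of males and females. The Gyg level was 645 and 649 in the WT males and from 645 to 690.4 in the 4 WT females. In KO mice it was 431 and 524 in the females and 501 to 604 in the 4 males. Gyg was chosen for its fall and its genotypes do not overlap. That KO mice were below WT mice in each sex follows from this and is no further result. limma called 0 of the 9 genes for sex, beside 0.0549% of all tested genes, and the lowest adjusted p among them was 0.806, for Pygb. edgeR also called 0 of the 9, and the number with an unadjusted p under 0.05 was 0 as well. The genotype difference of Gyg with sex as a covariate was -0.36 with a standard error of 0.07.

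Whether the genotype difference depended on sex was examined with an interaction term. The difference in males minus that in females was 0.24 for Gyg on the log2 scale (95% confidence interval -0.03 to 0.52, unadjusted p = 0.073, limma adjusted p of 1.0). For the other 8 genes the interaction ranged from -0.18 for Pygm to 0.22 for Pygl. limma called 0 genes of the whole table (0%), where 628 had an unadjusted p under 0.05, and edgeR called 0. With 2 WT males and 2 KO females the intervals are wide, and a dependence on sex is not shown to be absent.

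A list of 20 further genes of glycogen metabolism outside the set was compared, and 18 of them passed the limit on the mean. The other 2 were Gys2, the liver synthase, with 1.03 to 9.81 normalised counts, and Ppp1r3a, the muscle targeting subunit, with at most 1.85. Of the 18, 9 had a higher and 9 a lower mean log2 value in KO, with a median log2 fold change of -0.0015. limma called 0 of them (0.900% of all tested genes), as did edgeR and DESeq2. An unadjusted p under 0.05 was found for 4 of the 18 (22.2%), Phkb, Ppp1r3f, Pgm1 and Ppp1r3c, beside 13.5% of all tested genes. Phkb was known from earlier results of these data when the list was fixed, so this share is a description.

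By role, the phosphoglucomutase genes Pgm1, Pgm2 and Pgm2l1 had log2 fold changes from -0.08 to 0.05. Pgm1, which interconverts glucose 1-phosphate and glucose 6-phosphate and is singled out after its values were seen, shared with Gyg the lack of overlap, with 1483 to 1557 in WT and 1364 to 1469 in KO mice, a pattern found in 1.08% of all tested genes. Its log2 fold change was -0.08 with a standard error of 0.03 (limma adjusted p = 0.263). The 5 subunits of phosphorylase kinase, which activates phosphorylase, ranged from -0.17 to 0.06. The lowest was Phkb, known from earlier results of these data, with 820.1 to 1024 in WT and 767 to 850.5 in KO mice (limma adjusted p = 0.158). Gsk3a and Gsk3b, kinases that inactivate glycogen synthase, were at 0.07 and 0.06, and Nhlrc1, which encodes the laforin partner malin, was at -0.07.

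The 6 tested subunits that target protein phosphatase 1 to glycogen spanned the widest range. Ppp1r3f had the highest log2 fold change of the list, 0.36 with a standard error of 0.13 (limma adjusted p = 0.237), with 64.8 to 97.7 normalised counts in WT and 88.8 to 132 in KO mice. It was 0.21 without WT 490 and WT 493 (limma adjusted p = 0.662). Gm36995 overlaps Ppp1r3f on the same strand by 15682 bases, so some reads of Ppp1r3f may belong to it. The mean of Gm36995 was 90.6 in WT and 82.8 in KO mice. Ppp1r3b had the lowest log2 fold change of the list, -0.75 with a standard error of 0.45 (limma adjusted p = 0.499). Its level was 64.4 in WT 490 and 121 in WT 493 but 11.1 to 25.5 in the other 10 mice, and those are the libraries with the high choroid plexus markers. Without them its log2 fold change was -0.014 (limma adjusted p = 0.994). Among the windows of the list an E-box was found for Pgm2l1, Ppp1r3c and Ppp1r3d, none of which was called by limma. Of all tested genes with a window, 11.2% held CACGTG. Some genes of the list, Ppp1r3b, Ppp1r3e and Gys2 among them, had no window and could not be searched.

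**Figure D4:**
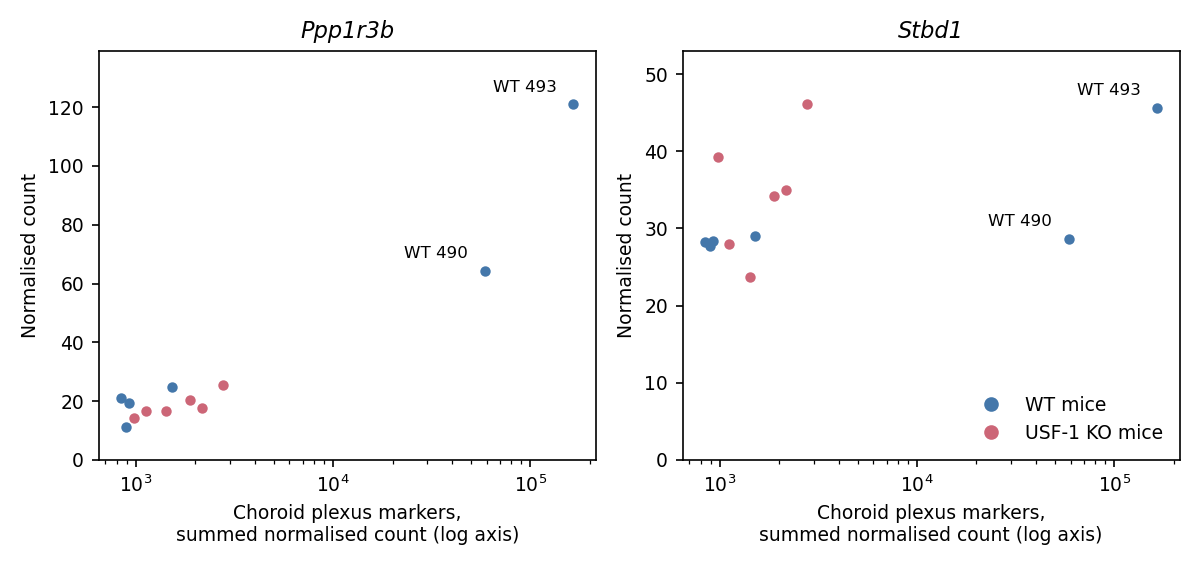
Normalised count of Ppp1r3b (left) and Stbd1 (right) against the summed normalised count of 8 choroid plexus markers (horizontal log axis) in each mouse. WT 490 and WT 493 stand apart on the horizontal axis, and in the left panel also on the vertical axis with 64.4 and 121.

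Gaa, the lysosomal enzyme, ranged from 9707 to 11577 normalised counts in WT and from 6073 to 7344 in KO mice (log2 fold change -0.63, limma adjusted p = 4.5e-05). Its window also holds CACGTG, 140 to 135 bases before the RefSeq start.

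The size of the Gyg difference was recomputed with other settings and with each mouse left out. It stayed between -0.38, without KO 553, and -0.28, without KO 530, and all 6 WT mice of the deposited values lie above all KO mice. Without WT 490 and WT 493 together the difference was -0.33. Since Gyg was chosen for this difference, its direction in these fits is a description.

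**Figure D5:**
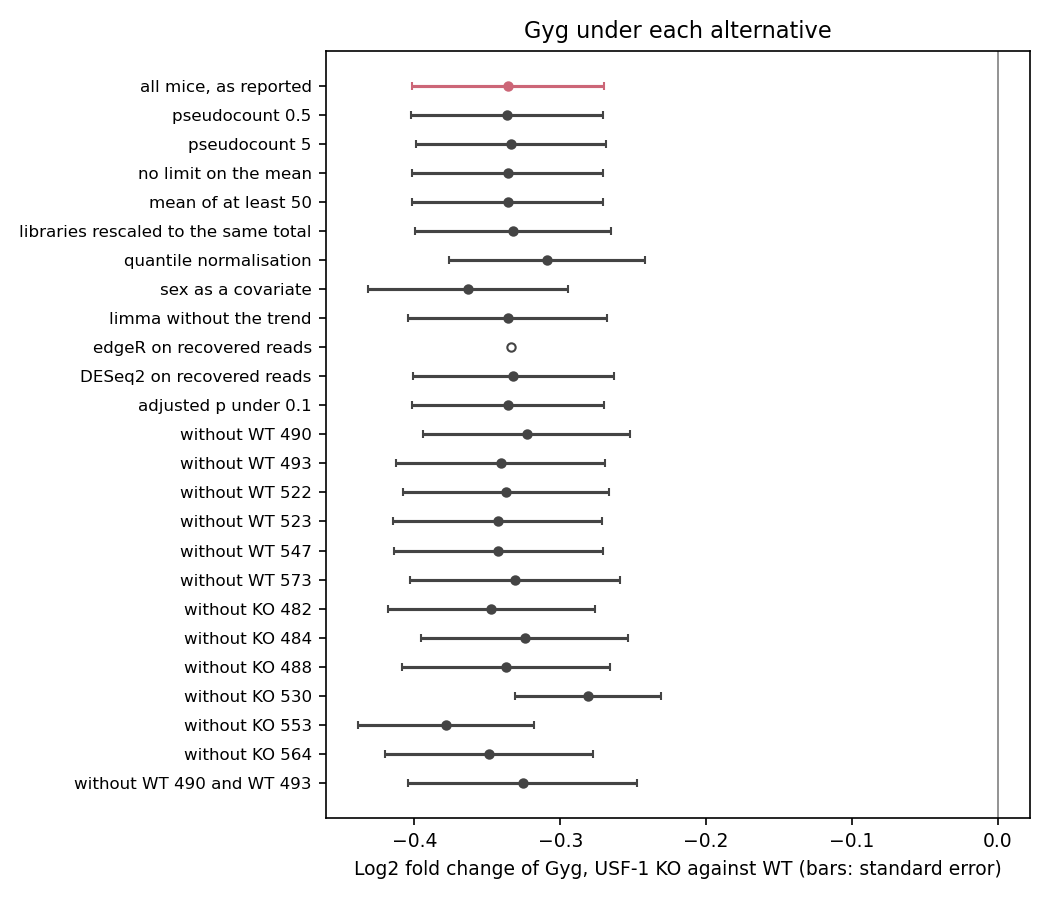
Log2 fold change of Gyg, USF-1 KO against WT (horizontal axis), as reported (red) and under each alternative, with bars for the standard error; edgeR, drawn as an open circle, gave no standard error. All values lie between -0.38 and -0.28.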

How the data were processed

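Hippocampal RNA of 12 mice was sequenced (NEBNext Ultra II), 1 library per mouse, and genotype and sex came from the labels, whose sexes differ from a legend of the study. The submitters' notes list STAR 2.5.0a, edgeR 3.22.2 and mm10, and the methods Basespace and DESeq2; annotation, counter and strandedness are not given in the sources used here. The deposited signal is a read count that the authors scaled by library size factors, from which whole reads were recovered. No library repeated another (lowest chi-square over degrees of freedom 4.54).

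limma 3.58.1 (R 4.3.3) was run with a mean-variance trend on log2(normalised count + 1), two-sided, for the 18221 genes averaging at least 10. Sex was tested beside genotype, and their interaction in another fit. Alternatives were pseudocounts of 0.5 and 5, no limit or a mean of 50, equal totals, quantile normalisation, sex as covariate, no trend, edgeR 4.0.16 (TMM) and DESeq2 1.42.0 on recovered reads, an adjusted p under 0.1 and each mouse left out. Correlations used 100000 permutations within genotype. The limma, edgeR and DESeq2 fits were tested on simulated counts. The genes, lists and tests were chosen with earlier results of these data known. Named were the 9 genes, the highest, lowest and any called gene and whole families of the pathway list, Usf1, Gaa, the 3 genes most like Gyg and markers that moved with them. The result of 1 listed gene is not reported here.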

Additional observations from a re-analysis of the deposited data

Results flagged for a closer look

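In groups of 6 mice, a value whose gap to the nearest other value took up more of the whole range than Dixon's critical value at 95% was looked at again. Among 60 groups 5 such values were found, and chance gives about 1 in 20 groups, or 3. Of the set, Epm2a was 673 normalised counts in KO 530, with the remaining KO mice at 732 to 754. Stbd1 was 45.6 in WT 493, while the remaining WT mice had 27.7 to 29.0. Of the further glycogen genes, Phkg1 was 381 in WT 493 (remaining WT mice 502 to 548), and Phkg2 was 1169.8 in KO 484 (remaining KO mice 1277 to 1309). Ppp1r3a was 1.63 in KO 488, which is 2 reads, and 0 in the other KO mice.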

How the results depend on the processing

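No gene of the set other than Gyg passed the threshold in any of 191 fits under alternatives, and 180 of these kept the direction. For Pygb the log2 fold change was 0.0096 with sex as a covariate and -0.031 to 0.0064 with each mouse left out. For Pygl it was 0.025 after quantile normalisation, 0.068 without WT 490 and WT 493 (an alternative chosen after seeing the data) and -0.086 to 0.049 with each mouse left out, and for Pygm it was -0.063 to 0.073. Leaving out each mouse also moved Ugp2 (-0.13 to -0.060), Epm2a (-0.091 to -0.034), Gbe1 (-0.22 to -0.062) and Stbd1 (0.036 to 0.24) by over 1.5 times without a change of direction. For sex, leaving out each mouse gave -0.0024 to 0.11 for Gyg, -0.029 to 0.071 for Gys1, -0.047 to 0.26 for Gbe1, -0.22 to 0.026 for Pygm, -0.034 to 0.055 for Ugp2 and -0.0025 to 0.070 for Epm2a. The number of genes of the set called for genotype was 0 in place of 1 after quantile normalisation, with limma without the trend and without WT 490 and WT 493, and 0 to 1 with each mouse left out; the gene concerned is Gyg, which was chosen by this contrast, so these calls are no test of its stability. Of all genes, 164 were called, against 98 with sex as a covariate, 109 without the trend, 611 by DESeq2, 343 at an adjusted p under 0.1, 59 without WT 490 and WT 493, and 64 (without WT 490) to 515 (without WT 522) with each mouse left out. For sex 10 to 17 genes were called, the latter without KO 488. Over merged exons the levels per kilobase were 253 for Gyg, 124 for Gys1, 34.3 for Gbe1, 1466 for Pygb, 15.7 for Pygl and 575 for Ugp2. The cause of these shifts was not tested. Depth limits Stbd1 most among the set, with 23 to 43 reads per mouse. No paired analysis was possible because the labels carry no replicate numbers shared by the genotypes.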
